A study of Homo sapiens with 4 samples.

Results

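The genes of the RNA polymerase I, II and III (Pol I, Pol II and Pol III) machinery were followed in 2 prostate cancer cell lines expressing a control short hairpin RNA or one against DDX52. Members were the protein-coding genes whose symbol begins with POLR1, POLR2 or POLR3 and a letter, together with UBTF, TAF1A, TAF1B, TAF1C, TAF1D, RRN3, TTF1, BRF1, BRF2, BDP1 and MAF1. This gave 45 genes of the 60671 listed, of which 19903 are protein-coding, and 44 symbols, because POLR2J3 is listed under 2 identifiers. By role, 6 encode subunits found in Pol I alone, 11 belong to Pol II and 10 to Pol III. POLR1C and POLR1D serve Pol I and Pol III, and 5 subunits, POLR2E, POLR2F, POLR2H, POLR2K and POLR2L, are built into all 3 enzymes. Of the rest, 7 are Pol I factors and 4 are Pol III factors. A further 14 genes matched the symbol pattern without being protein-coding, and they were not members.

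The study examined DDX52, a DEAD-box RNA helicase, in prostate cancer cells, here 22RV1 and PC3, both established human lines. Each line was infected with a lentiviral pLKO.1 vector encoding shCON, a non-targeting hairpin, or shDDX52, and infected cells were selected with puromycin, the same treatment for controls and knockdowns. With 1 library for each of the 4 conditions and 1 hairpin against DDX52, the differences carry no replicate error and were not tested. Nothing in these libraries can tell an effect of losing DDX52 from an effect of this hairpin or from ordinary variation between cultures. Abundance was given as TPM, a share of the library's transcripts scaled to a fixed total and corrected for gene length, so that levels can be compared between genes.

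Pol I makes the large ribosomal RNA precursor in the nucleolus, Pol II makes messenger RNAs and many noncoding RNAs, and Pol III makes transfer RNAs, the smallest ribosomal RNA and other short RNAs. In each enzyme the largest and next largest subunits form the active site, and smaller subunits hold them together, form a stalk for the emerging RNA or help at initiation and termination. Much of the transcription in growing cells is by Pol I and Pol III, and tumour cells are known for high activity of both.

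The sequence CACGTG, the E-box bound by MYC and related factors, was searched in the promoter windows of RefSeq on GRCh38.p14, from 250 bases before to 50 bases after each annotated start. The motif reads the same on both strands. Of the 44 member symbols, 33 had windows in the table, 46 in all, and 4 of these windows (8.7%) held the motif, against 7.26% of all 35116 windows and 8.34% of the 22199 windows of protein-coding genes. The share among members was therefore close to that among protein-coding genes. The 4 windows are printed 5′ to 3′ on the gene's strand with the motif in capitals. Of the 9 windows of Pol III subunits 3 held it, and another window of POLR3C did not. POLR3A and POLR3E differed by at least 1.5-fold in PC3, in opposite directions, and a link of these differences to the motif was not tested. The windows lie at chr19:45406394-45406693 on the plus strand (POLR1G), chr10:78029466-78029765 on the minus strand (POLR3A), chr1:145823950-145824249 on the plus strand (POLR3C) and chr16:22297159-22297458 on the plus strand (POLR3E).
POLR1G: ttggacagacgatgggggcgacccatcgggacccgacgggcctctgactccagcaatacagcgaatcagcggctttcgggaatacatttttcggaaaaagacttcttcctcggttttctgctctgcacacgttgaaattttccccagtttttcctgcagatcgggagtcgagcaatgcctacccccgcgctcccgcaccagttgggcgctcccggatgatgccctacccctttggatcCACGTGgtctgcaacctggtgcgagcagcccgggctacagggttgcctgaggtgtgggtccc
POLR3A: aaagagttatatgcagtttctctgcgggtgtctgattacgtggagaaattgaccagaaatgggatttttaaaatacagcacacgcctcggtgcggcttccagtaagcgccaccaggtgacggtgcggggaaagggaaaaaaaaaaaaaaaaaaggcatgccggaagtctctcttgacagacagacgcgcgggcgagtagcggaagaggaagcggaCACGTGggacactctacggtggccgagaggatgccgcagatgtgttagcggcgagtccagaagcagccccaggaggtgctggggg
POLR3C: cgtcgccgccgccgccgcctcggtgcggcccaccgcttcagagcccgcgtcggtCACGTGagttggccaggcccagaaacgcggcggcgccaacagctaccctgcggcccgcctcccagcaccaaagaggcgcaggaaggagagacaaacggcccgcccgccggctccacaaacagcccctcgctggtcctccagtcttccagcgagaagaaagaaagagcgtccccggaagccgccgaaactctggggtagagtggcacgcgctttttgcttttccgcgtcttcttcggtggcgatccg
POLR3E: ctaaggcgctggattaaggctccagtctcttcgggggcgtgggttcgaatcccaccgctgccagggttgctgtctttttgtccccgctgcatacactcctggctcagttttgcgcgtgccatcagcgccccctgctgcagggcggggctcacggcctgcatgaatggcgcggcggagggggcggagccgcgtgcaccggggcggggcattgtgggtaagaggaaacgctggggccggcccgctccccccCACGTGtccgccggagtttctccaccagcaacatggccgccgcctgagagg
The first base of the motif stood at −12 in POLR1G, −35 in POLR3A, −196 in POLR3C and −1 in POLR3E, counted from the start. A match describes the letters and says nothing about binding in these cells. No window of TAF1B or POLR1B, the members furthest down in 22RV1, held CACGTG.

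Some member genes are near copies of each other, and their values are uncertain. POLR2J, the Pol II subunit that pairs with POLR2C in enzyme assembly, has the copies POLR2J2 and POLR2J3 on chromosome 7. The coding sequences of POLR2J2 and POLR2J3 in GENCODE 29, each of 348 bases, differ at 2 bases, G84T and C90T, with the POLR2J2 base first and positions counted from 1 at the A of the start codon. Their first 120 bases are shown with the differing bases in capitals.
POLR2J2: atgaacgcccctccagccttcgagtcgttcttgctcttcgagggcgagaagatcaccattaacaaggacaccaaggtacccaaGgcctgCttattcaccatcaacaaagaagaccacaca
POLR2J3: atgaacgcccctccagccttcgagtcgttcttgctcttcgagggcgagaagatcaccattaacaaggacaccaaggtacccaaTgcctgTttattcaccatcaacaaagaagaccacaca
Of the 50-base windows of the longest transcript, 97.5% in POLR2J2 and 93.7% in POLR2J3 (ENSG00000168255) also occurred in other genes. The share was 33.5% in POLR2J, 31.6% in POLR2M, 28.9% in POLR2J3 (ENSG00000285437) and 26.9% in RRN3, and it was 0 in POLR1B, TAF1B, POLR2F and POLR3A. How reads shared by copies were assigned is not given in the sources used here, nor is whether counting used strand, so reads of genes overlapping on opposite strands may also be mixed.

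DDX52 itself was at 4.88 TPM in the 22RV1 control and 1.2 TPM with its hairpin, 24.6% of control, and at 9.2 and 2.07 TPM in the PC3 libraries, 22.5% of control. CAV1, a PC3 marker, was at 162 and 130.2 TPM in PC3 and under 1 TPM in 22RV1, and of the markers listed for the lines, 5 of 6 for 22RV1 were at least 1.5-fold lower in the PC3 control than in the 22RV1 control and 3 of 4 for PC3 at least 1.5-fold higher. The number of genes at 1 TPM or more ranged from 13504 to 13738. Ribosomal RNA took 1.21% and 0.0872% of the TPM in 22RV1 shCON and shDDX52, and 0.0923% and 3.13% in PC3. Mitochondrial genome transcripts took 9.81% and 13.0% in 22RV1 and 8.1% and 10.3% in PC3. These shares moved with the hairpin in each line, and their part in the differences below was not tested.

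As a whole, the polymerase genes differed little between shDDX52 and shCON in 22RV1. All 45 members reached 1 TPM in at least 1 of the 22RV1 libraries, and their abundance summed to 3298 TPM in the control and 3306.5 TPM in the knockdown, 0.334% of each library. The log2 ratio, log2((TPM shDDX52 + 1)/(TPM shCON + 1)), was below 0 in 28 members (62.2%; 58.8% of all genes) and above 0 in 17, with a median of −0.0725 beside −0.0759 over all 14438 genes tested. A difference of at least 1.5-fold on this scale, which is a log2 ratio of 0.585 in size, was seen in 3 members with lower values (6.67%; 8.47% of all genes and 6.26% of protein-coding genes) and in 1 with a higher value (2.22%; 5.61% of all genes and 3.83% of protein-coding genes). TAF1B, POLR1B and POLR2M were the lower genes and POLR2J2 was the higher one. POLR2J2, at 0.24 TPM in shCON and 1.42 TPM in shDDX52, passed the 1 TPM filter only through the library where it was high. Its count as higher therefore carries no weight. Both shares were near or below those of all genes and of protein-coding genes. Among protein-coding genes with a mean of at least 10 TPM, 3.78% passed the limit downward and 2.0% upward, less than among the members. The members were not held to that mean, and TAF1B, POLR1B and POLR2J2 lie under it. Counts of 3 and 1 among 45 members are too small to tell whether the members stand apart as a set.

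In PC3 the members summed to 3355 TPM in the control and 2946 TPM in the knockdown, 0.339% and 0.299% of the library. Of the 44 members that reached 1 TPM in either library, 30 were lower with shDDX52 and 14 higher, or 68.2% lower beside 53.5% of all 14262 genes tested and 59.4% of protein-coding genes with a mean of at least 10 TPM. Their median log2 ratio was −0.12, against −0.036 over all genes. At least 1.5-fold lower values were found for 3 members, POLR3E and POLR2F among them (6.82%; 9.84% of all genes and 7.39% of protein-coding genes), and at least 1.5-fold higher values for POLR2M and POLR3A, 2 members (4.55%; 8.95% of all genes and 7.22% of protein-coding genes). These shares were below those of all genes and of protein-coding genes. They were slightly above the 6.2% lower and 4.44% higher among protein-coding genes with a mean of at least 10 TPM. When TPM was recomputed over nuclear protein-coding genes, which leaves out ribosomal and mitochondrial RNA, the median of all genes in PC3 moved from −0.036 to 0.087 and that of the members from −0.12 to −0.0016, so both medians shifted by a similar amount. On that scale POLR3E and POLR2F each stood at −0.52, no longer past 1.5-fold.

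**Figure D1:**
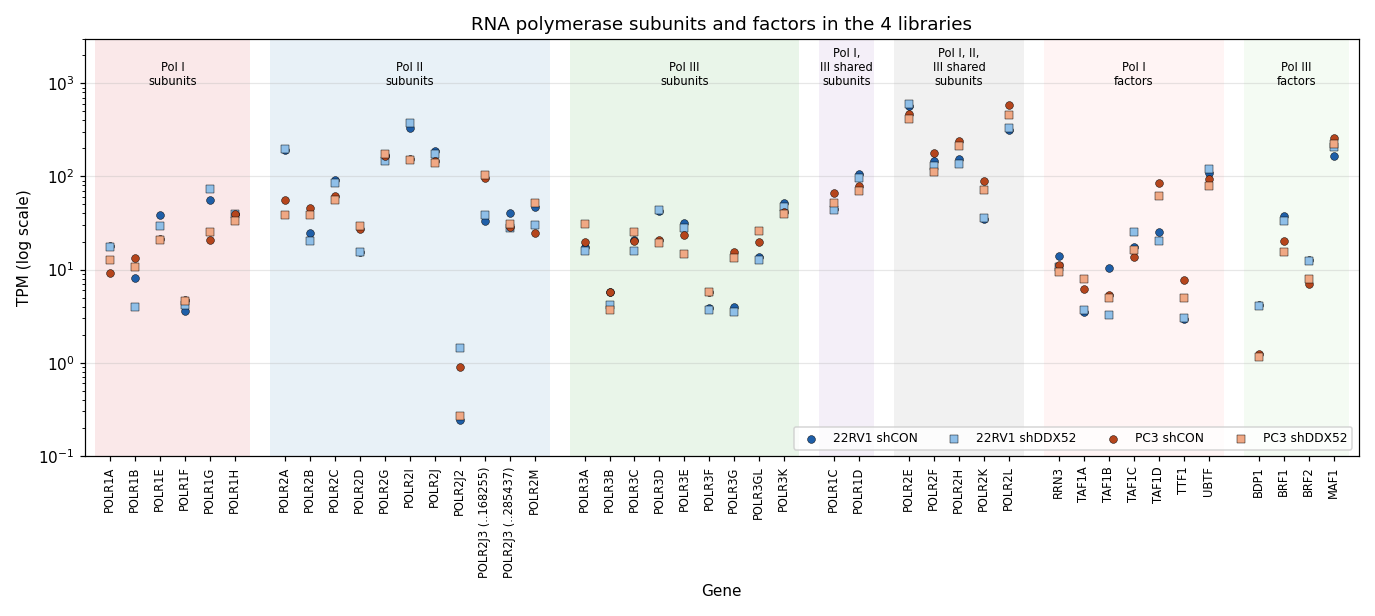
TPM (vertical axis, log scale) of the member genes reported individually in the 4 libraries, ordered by role; circles are shCON and squares shDDX52, in blue for 22RV1 and in red for PC3. POLR2E, at 593 TPM in 22RV1 shDDX52, lies at the top and POLR2J2, at 0.24 TPM in 22RV1 shCON, at the bottom, and the symbols of 1 line mostly lie closer together than those of different lines.

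Among the Pol I subunits, the catalytic pair did not move together. POLR1A, the largest subunit, was at 17.9 and 17.5 TPM in 22RV1 shCON and shDDX52 and at 9.27 and 12.7 TPM in PC3 shCON and shDDX52. With shDDX52 it was thus near control in 22RV1 (log2 ratio −0.032) and above it in PC3 (0.42). POLR1B (chr2:112541915-112577150, plus strand), the next largest subunit, was at 8.14 TPM in the 22RV1 control and 3.98 TPM in the knockdown, or 48.9% of control, for a log2 ratio of −0.88. The PC3 libraries had 13.4 and 10.5 TPM, and the log2 ratio there was −0.32. POLR1B was thus lower with shDDX52 in both lines and past the 1.5-fold limit in 22RV1.

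POLR1G and POLR1E form a pair that helps Pol I to initiate. POLR1G, which has the highest mean of this group, was at 56.2 and 72.6 TPM in 22RV1 and at 20.7 and 25.1 TPM in PC3, higher with shDDX52 in each line (log2 ratios 0.36 and 0.27). POLR1E was at 38.6 and 29.01 TPM in 22RV1 and at 21.3 and 20.9 TPM in PC3, so that its value with shDDX52 lay below control in 22RV1 (log2 ratio −0.40) and close to it in PC3 (−0.024). POLR1F, part of the stalk, had the lowest mean of the group, at 3.6 to 4.67 TPM. POLR1H, a small zinc-binding subunit, stayed between 33.0 and 39.7 TPM in all 4 libraries. Over the 6 subunits, 3 were lower and 3 higher in 22RV1 (median −0.0071) and 4 were lower and 2 higher in PC3 (median −0.025, or 0.092 with TPM over nuclear protein-coding genes).

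The Pol I factors held the furthest value of all members. TAF1A, TAF1B, TAF1C and TAF1D form, with the TATA-binding protein TBP, the complex SL1 that marks the ribosomal gene promoter. TAF1B (chr2:9843354-9934416, plus strand) was at 10.3 TPM in the 22RV1 control and 3.25 TPM in the knockdown, 31.6% of control, for a log2 ratio of −1.41. With the pseudocount of 1 TPM it was the 1 member past 2-fold lower in 22RV1, where 2.86% of all genes were. POLR1B, at 48.9% of control, was past 2-fold lower there with a pseudocount of 0.1 (log2 ratio −1.01). In PC3 TAF1B was at 5.39 and 4.92 TPM (log2 ratio −0.11). The 22RV1 shCON library was thus the high one for TAF1B, and the other 3 lay between 3.25 and 5.39 TPM.

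None of the other SL1 genes reached 1.5-fold in either line. In a single line and direction 5.61% to 9.84% of all genes did, so this says little for so few genes. TAF1C was at 17.3 and 25.1 TPM in 22RV1, a log2 ratio of 0.51 that came nearest to the 1.5-fold limit without reaching it, and at 13.6 and 16.2 TPM in PC3 (0.24). TAF1A was at 3.46 and 3.68 TPM in 22RV1 and at 6.16 and 7.92 TPM in PC3. TAF1D was at 25.5 and 20.4 TPM in 22RV1 and at 84.6 and 61.3 TPM in PC3, lower with shDDX52 in each line. Its longest transcript shares 9.07% of its 50-base windows with other genes, among them the small nucleolar RNAs it hosts.

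UBTF, which binds along the ribosomal genes and opens them, was the most abundant Pol I factor, at 110.1 and 121 TPM in 22RV1 and at 94.8 and 78.8 TPM in PC3. With shDDX52 it was slightly higher in 22RV1 (log2 ratio 0.13) and lower in PC3 (−0.26). RRN3, the factor that carries Pol I to SL1, was at 13.9 and 10.6 TPM in 22RV1 and at 11.1 and 9.47 TPM in PC3. TTF1, which stops Pol I at the end of the ribosomal gene, was at 2.98 and 3.01 TPM in 22RV1 and at 7.68 and 4.92 TPM in PC3. Its log2 ratio of −0.55 in PC3 was the one closest to the 1.5-fold limit from outside. Of the 7 Pol I factors, 3 were lower in 22RV1, with a median of 0.011, and 5 in PC3, with a median of −0.21.

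For Pol II, the largest subunit differed between lines more than between hairpins. POLR2A, which carries the repeated tail that is phosphorylated during transcription, was at 193 and 198 TPM in 22RV1 shCON and shDDX52 and at 55.7 and 38.6 TPM in PC3. The log2 ratio was 0.033 in 22RV1 and −0.52 in PC3, the latter under the 1.5-fold limit. POLR2B, its partner at the active site, was at 24.9 and 20.3 TPM in 22RV1 and at 46.1 and 38.8 TPM in PC3, and its log2 ratios of −0.28 and −0.24 were alike in sign. In 22RV1 POLR2A stood far above POLR2B, and in PC3 the pair were much closer, nearly level in the shDDX52 library.

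POLR2M (chr15:57706629-57782762, plus strand), which encodes the Pol II-associated protein Gdown1 that competes with the factor TFIIF, was past 1.5-fold in both lines and in opposite directions. It was at 47.3 TPM in the 22RV1 control and 30.3 TPM in the knockdown, a log2 ratio of −0.63 and the value nearest to the limit among those past it in 22RV1, and −0.55 once centred on all genes, which is under it. In PC3 it was at 24.6 TPM in the control and 52.2 TPM in the knockdown, a log2 ratio of 1.05 and the 1 member past 2-fold higher, as were 2.86% of all genes. The difference between the lines was not tested. GCOM1, a gene overlapping POLR2M on the same strand for 8117 bases, was listed at 0 and 0.44 TPM in 22RV1 and at 0.69 and 1.33 TPM in PC3.

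Apart from POLR2J2, described below, the other Pol II subunits differed less than POLR2M in each line. POLR2I, a small subunit with a part in accuracy, had the highest mean in this group and was at 329 and 379 TPM in 22RV1 and at 155 and 150.4 TPM in PC3. POLR2G, of the stalk, was at 171 and 147 TPM in 22RV1 and at 167 and 175 TPM in PC3, and its stalk partner POLR2D was at 15.5 and 15.5 TPM in 22RV1 and at 27.6 and 29.6 TPM in PC3. POLR2C was lower with shDDX52 by a like amount in each line, at 92.4 and 84.7 TPM in 22RV1 and 60.9 and 55.8 TPM in PC3. The 11 Pol II genes had a median of −0.12 in 22RV1, with 7 lower, and of 0.01 in PC3, with 5 of 10 lower.

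Among the POLR2J copies, POLR2J was at 187 and 172 TPM in 22RV1 and at 146 and 139.7 TPM in PC3. POLR2J2, the scarcest member, was at 0.24 and 1.42 TPM in 22RV1 (log2 ratio 0.96) and at 0.89 and 0.27 TPM in PC3, where it did not reach 1 TPM. POLR2J3 (ENSG00000168255) was at 33.2 and 38.8 TPM in 22RV1 and at 97.0 and 104.4 TPM in PC3. POLR2J3 (ENSG00000285437) was at 40.2 and 28.2 TPM in 22RV1 and at 28.6 and 30.5 TPM in PC3. The sum of these 4 genes was 261 and 241 TPM in 22RV1 and 273 and 275 TPM in PC3. In 22RV1 POLR2J made up most of the sum, and both were lower with shDDX52 by a like proportion. In PC3 the sum was nearly level.

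**Figure D2:**
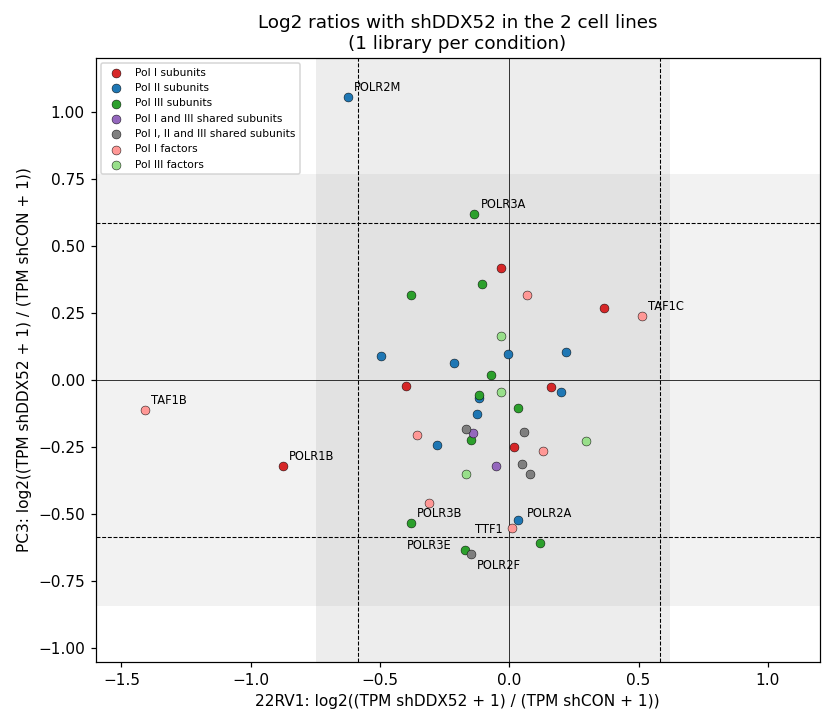
Log2 ratio of shDDX52 over shCON in PC3 (vertical axis) against that in 22RV1 (horizontal axis) for the 44 members tested in both lines, coloured by role; POLR2J2 is not drawn because it did not reach 1 TPM in PC3. Dashed lines mark 1.5-fold and grey bands hold the middle of all genes from the 5th to the 95th percentile, −0.75 to 0.62 in 22RV1 and −0.84 to 0.77 in PC3; TAF1B and POLR1B lie left of the 22RV1 band and POLR2M above the PC3 band.

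Pol III subunits differed in PC3 in both directions. POLR3A (chr10:77969251-78029545, minus strand), the largest subunit, was at 17.4 and 15.7 TPM in 22RV1 and at 19.8 and 31.0 TPM in PC3 shCON and shDDX52. The PC3 shDDX52 library was the high one, at 156% of control (log2 ratio 0.62). POLR3B, the next largest, was at 5.74 and 4.18 TPM in 22RV1 and at 5.73 and 3.65 TPM in PC3, lower with shDDX52 in each line (log2 ratios −0.38 and −0.53). The catalytic pair of Pol III thus stood apart in PC3, with POLR3A higher and POLR3B lower than control.

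POLR3E (chr16:22297375-22335103, plus strand), which pairs with POLR3D at initiation and termination, was at 31.5 and 27.8 TPM in 22RV1 and at 23.2 and 14.6 TPM in PC3. The PC3 value with shDDX52 was 62.9% of control (log2 ratio −0.63), and that in 22RV1 88.4% (−0.17). POLR3D was at 42.4 and 43.5 TPM in 22RV1 and at 20.7 and 19.2 TPM in PC3, close to control in each line.

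POLR3C and POLR3F belong, with POLR3G or its relative POLR3GL, to the subcomplex that lets Pol III open its promoters. POLR3C was at 20.8 and 15.7 TPM in 22RV1 and at 20.1 and 25.2 TPM in PC3, with log2 ratios of −0.38 and 0.32. POLR3F had the lowest mean of the group, at 3.9 and 3.66 TPM in 22RV1 and 5.7 and 5.78 TPM in PC3, and POLR3K, which acts in RNA cleavage at termination, had the highest, at 51.2 and 47.1 TPM in 22RV1 and 41.4 and 39.7 TPM in PC3. In 22RV1, 8 of 10 Pol III subunits were lower with shDDX52 (median −0.13), beside 58.8% of all genes with a median of −0.0759, and in PC3 6 of 10 were (median −0.079, or 0.046 with TPM over nuclear protein-coding genes). None of the 10 was past 1.5-fold in 22RV1, where 8.47% of all genes were lower by that much and 5.61% higher. A count over 10 genes says little.

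POLR3G and POLR3GL are alternative subunits, of which POLR3G is known from stem cells and tumours and POLR3GL from most tissues. POLR3G was at 3.99 and 3.5 TPM in 22RV1 and at 15.6 and 13.2 TPM in PC3. POLR3GL was at 13.8 and 12.7 TPM in 22RV1 and at 19.9 and 25.8 TPM in PC3. POLR3G made up 22.5% and 21.6% of the pair in 22RV1 shCON and shDDX52, and 43.9% and 33.8% in PC3. The share was thus higher in both PC3 libraries than in both 22RV1 libraries, and within PC3 it was lower with shDDX52. A gene on the same strand, AC243547.3, overlaps POLR3GL and was listed at 8.95 TPM in 22RV1 shDDX52 and at 0 in the other libraries.

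None of the 4 Pol III factors reached 1.5-fold in either line. In 22RV1 8.47% of all genes were that much lower and 5.61% higher, and in PC3 9.84% and 8.95%. A count over 4 genes therefore says little. BRF1 and BDP1 make up the factor TFIIIB with TBP, and BRF2 takes the place of BRF1 at genes whose promoter lies upstream. BRF1 was at 37.6 and 33.3 TPM in 22RV1 and at 20.1 and 15.6 TPM in PC3, lower with shDDX52 in each line (log2 ratios −0.17 and −0.35). BRF2 was at 12.8 and 12.46 TPM in 22RV1 and at 6.98 and 7.94 TPM in PC3. BDP1 was at 4.15 and 4.04 TPM in 22RV1 and at 1.23 and 1.16 TPM in PC3, the lowest of the 4. MAF1, the repressor of Pol III, was at 166 and 205 TPM in 22RV1 and at 258 and 220.3 TPM in PC3, higher with shDDX52 in 22RV1 (log2 ratio 0.30) and lower in PC3 (−0.23).

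The subunits shared by the enzymes formed the group furthest below control in PC3 by median. All 5 of the subunits common to Pol I, II and III were lower with shDDX52 in PC3, with a median of −0.31 (−0.19 with TPM over nuclear protein-coding genes). Of all genes 53.5% were lower in PC3, and of protein-coding genes with a mean of at least 10 TPM 59.4% were. In 22RV1 2 of the 5 were lower and 3 higher, with a median of 0.05. POLR2F (chr22:37952607-38041915, plus strand) was at 145 and 131 TPM in 22RV1 and at 177 and 113 TPM in PC3, or 63.6% of control in PC3 (log2 ratio −0.65). POLR2L, a small zinc-binding subunit, was at 315 and 333 TPM in 22RV1 and at 585 and 459 TPM in PC3 (log2 ratios 0.08 and −0.35). POLR2K, another zinc-binding subunit and the scarcest of the 5, was at 34.5 and 35.8 TPM in 22RV1 and at 90.2 and 72.3 TPM in PC3.

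POLR2E, the member with the highest mean over the 4 libraries, was at 569 and 593 TPM in 22RV1 and at 469 and 410.1 TPM in PC3, and POLR2H was at 153 and 136 TPM in 22RV1 and at 239.8 and 211 TPM in PC3. Together the 5 genes gave 1217 and 1229 TPM in 22RV1 and 1562 and 1265 TPM in PC3. POLR1C and POLR1D, which serve Pol I and Pol III, were lower with shDDX52 in both lines. POLR1C was at 44.7 and 43.2 TPM in 22RV1 and at 65.7 and 52.4 TPM in PC3, and POLR1D at 106 and 96.2 TPM in 22RV1 and at 79.4 and 69.1 TPM in PC3, and the median of the pair was −0.096 in 22RV1 and −0.26 in PC3.

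Transcript length moved with the log2 ratio in PC3. Protein-coding genes were split into 5 equal bins by their longest transcript, and the median log2 ratio in PC3 went from −0.17 in the shortest bin through −0.088, −0.026 and 0.055 to 0.13 in the longest. The members' own medians in these bins did not rise steadily. From shortest to longest they were −0.062, −0.067, −0.23, −0.23 and 0.19. The subunits shared by all 3 enzymes have longest transcripts of 892 to 2831 bases and lie in the 2 shortest bins. Each of these shared subunits stood below the PC3 median of its bin, POLR2H only slightly. POLR2F was at −0.65 and POLR2E at −0.19, in a bin with a median of −0.088. In the bin with a median of −0.17, POLR2H was at −0.18, POLR2K at −0.31 and POLR2L at −0.35. POLR3E, at −0.63, lies in a bin with a median of 0.055. POLR3A, at 0.62, lies in the longest bin. In 22RV1 the medians of protein-coding genes ran from −0.043 in the shortest to −0.11 in the longest bin. The part of length in these results was not tested.

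**Figure D3:**
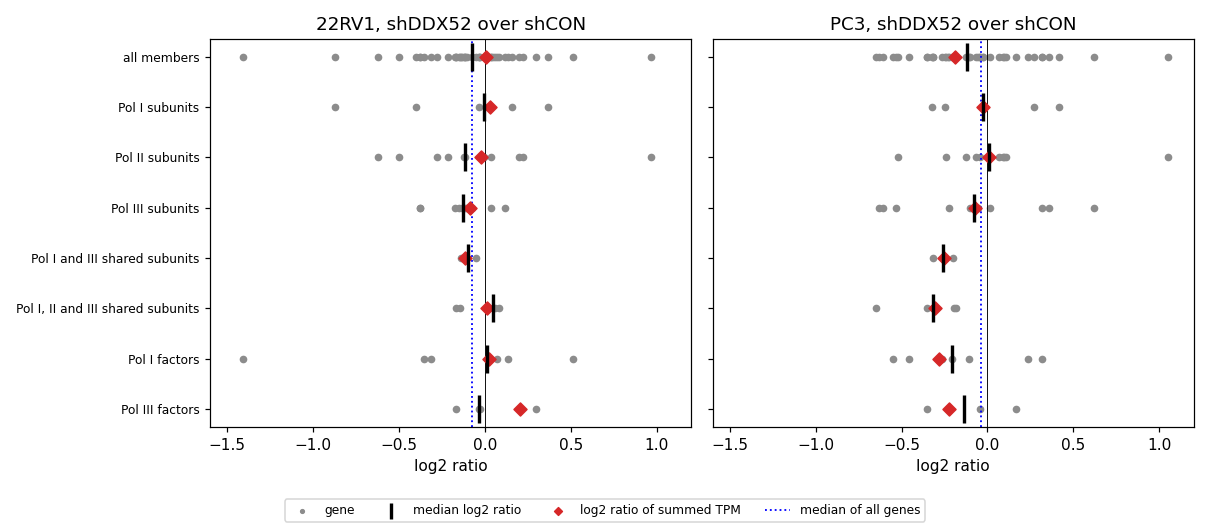
Log2 ratio of shDDX52 over shCON (horizontal axis) for each member (grey points) by role, in 22RV1 on the left and PC3 on the right, with the median (black bar), the log2 ratio of the summed TPM without a pseudocount (red diamond) and the median of all genes tested (dotted line). All 5 subunits shared by the 3 enzymes lie left of 0 in PC3, and in 22RV1 they lie on both sides of it.

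Between the lines, the members' log2 ratios showed little relation in order, with Spearman's rho of 0.069 over the 44 members tested in both, given as a description since members of 1 library share its scaling. Values were lower with shDDX52 in both lines for 18 members (40.9%; 32.5% of 12175 genes) and higher in both for 4 members (9.09%; 18.5% of genes). A further 10 members were lower in 22RV1 and higher in PC3, and 12 the reverse. No member was past 1.5-fold in the same direction in both lines. The share of all genes that were was not counted, so this says little about the members. In a single line and direction, 5.61% to 9.84% of all genes were past that limit. POLR1B, POLR3B and TAF1D were among those lower in both, and POLR1G, TAF1A and TAF1C among those higher in both.

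Genes that work with the polymerases were counted by list. In a single line and direction, 5.61% to 9.84% of all genes were past 1.5-fold. The lists are too short for their counts to be set against these shares. Of the 8 basal Pol II factors, GTF2E2, a subunit of TFIIE, was past 1.5-fold lower in both lines, at 18.95 and 9.23 TPM in 22RV1 and at 29.5 and 17.0 TPM in PC3 (log2 ratios −0.96 and −0.76), and the list's medians were −0.16 and −0.13. TBP, which serves all 3 polymerases, was at 14.0 and 12.3 TPM in 22RV1 and at 7.67 and 9.15 TPM in PC3. Of the 10 TFIIH genes, GTF2H2 was past 1.5-fold lower in 22RV1 (19.0 and 9.67 TPM) and GTF2H3 past 1.5-fold higher in PC3 (13.3 and 21.7 TPM). Of the 7 genes for TFIIIA and TFIIIC, which recruit TFIIIB to Pol III genes, 5 were lower in PC3 with a median of −0.34. In that line 53.5% of all genes were lower, with a median of −0.036. GTF3C6 was past 1.5-fold lower in PC3, at 110.1 and 72.0 TPM.

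The 5 SNAPc genes, for the complex that binds small nuclear RNA promoters, had a median of −0.019 in 22RV1 and of 0.055 in PC3, and SNAPC1 was past 1.5-fold higher in PC3, at 31.4 and 49.1 TPM. Of the 13 genes for assembly of the polymerases, 9 were lower in 22RV1 and 10 in PC3, beside 58.8% and 53.5% of all genes. The list's medians were −0.082 and −0.15. Past 1.5-fold lower were RPAP2 in 22RV1, at 1.93 and 0.82 TPM, and RPAP3 in PC3, at 12.8 and 6.71 TPM. CRCP, a subunit of the Pol III stalk, which the symbol pattern does not match, was at 40.8 and 39.6 TPM in 22RV1 and at 26.4 and 33.6 TPM in PC3. The 3 genes of the mitochondrial polymerase list, POLRMT, TFAM and TFB2M, had medians of −0.064 and −0.24, with none past 1.5-fold.

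The control libraries of the 2 lines were compared as well, again with 1 library each. Among the 44 members reaching 1 TPM in either, 12 were at least 1.5-fold lower in PC3 (27.3%; 32.2% of all genes) and 12 at least 1.5-fold higher (27.3%; 29.3% of all genes), and the median log2 ratio of PC3 over 22RV1 was −0.039 beside −0.067 over 15727 genes. At 2-fold, 5 members were lower (11.4%; 21.3% of all genes) and 5 higher (11.4%; 19.9% of all genes). The members' shares were thus close to the background at 1.5-fold and below it at 2-fold. The order of their levels gave a Spearman's rho of 0.884 between the 2 control libraries and 0.98 and 0.977 between the 2 libraries of 22RV1 and of PC3, as a description over 45 genes.

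Those at least 2-fold higher in PC3 on this scale were POLR3G (3.99 against 15.6 TPM in 22RV1 and PC3 shCON), TAF1D (25.5 against 84.6 TPM), POLR2J3 (ENSG00000168255; 33.2 against 97.0 TPM), POLR2K (34.5 against 90.2 TPM) and TTF1 (2.98 against 7.68 TPM). Those at least 2-fold lower were POLR2A (193 against 55.7 TPM, or 3.47-fold), BDP1 (4.15 against 1.23 TPM, or 3.37-fold), POLR1G (56.2 against 20.7 TPM), POLR2I (329 against 155 TPM) and POLR3D (42.4 against 20.7 TPM). The same order of the lines was seen in the shDDX52 libraries for each of these 10 genes. By sum, subunits of Pol I alone were at 164 TPM in 22RV1 and 109 TPM in PC3, those of Pol II at 1134 and 810.2 TPM, and those of Pol III at 228 and 219.8 TPM, while the subunits common to all 3 enzymes were at 1217 and 1562 TPM.

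**Figure D4:**
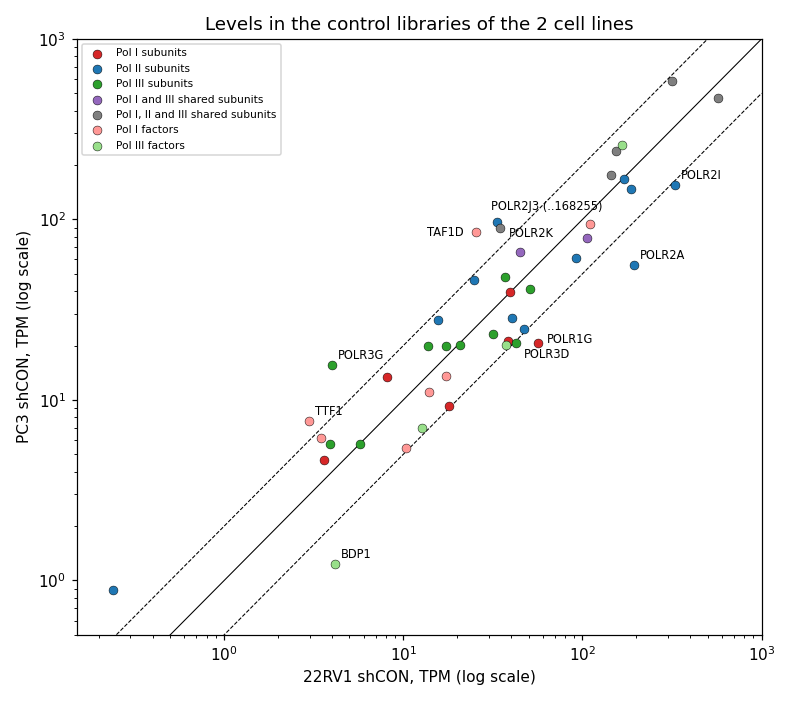
TPM in the PC3 shCON library (vertical axis) against the 22RV1 shCON library (horizontal axis), both on log scales, for each member, coloured by role; the solid line marks equal TPM, dashed lines mark 2-fold in TPM, and names mark members at least 2-fold apart on the log2(TPM + 1) scale. Most members lie between the dashed lines, with POLR2A and BDP1 furthest below and POLR3G and TAF1D furthest above among the named genes.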

How the data were processed

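Total RNA of the 4 cultures was sequenced with an Illumina TruSeq library kit, and the authors deposited TPM for 60671 Ensembl genes. Their processing notes name CASAVA, HISAT2 and the build hg19, without versions. The program that made the TPM, the annotation and the strand setting are not given in the sources used here. GENCODE 29 on GRCh38 held 58453 of the identifiers and gave gene types, positions and transcripts, so that positions are those of GENCODE 29 and the build behind the values is unsettled. TPM keeps no depth, so no interval is given.

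Log2 ratios used a pseudocount of 1 TPM, which understates differences of low genes, and a comparison kept the genes that reached 1 TPM in 1 of its libraries or both. The limit was 1.5-fold. With 1 library per condition no test was made, and counts and medians stand beside those of all genes tested. Members and lists were chosen with earlier results of these data known. Named genes were DDX52, the catalytic subunits, paralogues, the highest and lowest of each role, members past 1.5-fold with shDDX52 or past 2-fold between controls, and those nearest the limit; others are named for their level. Some genes the rule covers are not reported here, but counts, sums and medians include every member. POLR2J4 is not protein-coding in GENCODE 29 and was no member. A shared window means that 50 bases of the longest transcript occur exactly in a transcript of another gene. Alternatives were a pseudocount of 0.1, no filter or 5 TPM, TPM over nuclear protein-coding genes, centring on all genes, leaving out the POLR2J copies and adding CRCP. The protein-coding backgrounds were added after seeing the data. Calls were tested on simulated data, and figures were drawn with matplotlib 3.10.9. The computing was in Python 3.11.15 with pandas 2.3.3, numpy 2.4.6 and scipy 1.17.1.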

Additional observations from a re-analysis of the deposited data

Results flagged for a closer look

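POLR2M went opposite ways with shDDX52 in the 2 cell lines, with a log2 ratio of −0.63 in 22RV1 and 1.05 in PC3. Each line has 1 library per hairpin, and the difference between the lines was not tested. The gene shares 31.6% of the 50-base windows of its longest transcript with other genes, chiefly GCOM1, which was at or under 1.33 TPM in every library.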

How the results depend on the processing

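No paired analysis was possible because each comparison set 1 library against 1, and for the same reason no library could be left out of one. A fit over both lines with the line as a block, which would keep 1 residual degree of freedom, was not run. Of 174 alternative values for 34 results, 157 kept their side of the 1.5-fold limit or moved by less than 0.1 (log2) or 1.5 times, and 0 turned direction past the limit. With at least 5 TPM required, members at least 1.5-fold higher in 22RV1 went from 1 to 0, since POLR2J2 was no longer tested, and the median of the Pol I factors in 22RV1 from 0.011 to −0.31, since fewer of them were. Centring on all genes made 2 members, TAF1C with POLR2J2, at least 1.5-fold higher in 22RV1 and took POLR2M there to −0.55, under the limit. With a pseudocount of 0.1, 5 members were at least 1.5-fold lower in PC3, with TTF1 and POLR3B added. With TPM rescaled to nuclear protein-coding genes, 1 was, POLR2J2, and POLR3E and POLR2F each stood at −0.52. POLR2J2, at 0.89 TPM in PC3 shCON and 0.27 TPM in shDDX52 before rescaling, then reached 1 TPM only through the library where it was high. The same scaling took the PC3 medians to −0.0016 for all members, 0.092 for Pol I, 0.046 for Pol III, −0.13 for the Pol I and III shared subunits, −0.19 for the subunits shared by all, −0.0895 for Pol I factors and −0.036 for Pol III factors. Where no reason is given, the cause was not tested.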
